A study of Rattus norvegicus with 2 samples.

Results

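The genes of the cell cycle and of DNA replication were compared between 2 cultures of rat endothelial cells, aortic and endocardial, the latter from the lining of the heart chambers. The list had 40 genes, chosen by symbol, and a gene was followed through every non-control probe set (a group of short probes for 1 transcript) that the platform annotation paired with that symbol alone. Of the 40 genes, 30 had such a probe set, 52 in all, among 4736 gene symbols on the array. The D-type cyclin gene Ccnd2 and the cyclin-dependent kinase inhibitor gene Cdkn1a, with opposing roles in G1, both had intensities at least 2-fold higher in the endocardial cells, as did the mitotic kinase gene Plk1. These were 3 of 22 genes with a usable value (13.6%), where 5.93% of all 2935 such genes on the array differed by as much in that direction. The other measured mitosis genes and all 4 measured replication genes lay within 2-fold.

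The aortic and the endocardial cells came from 1 pair of rats, were pooled by origin, and were grown to passage 2 with culture conditions and confluence matched as closely as the experimenters could. Total RNA of each pool was hybridised to 1 Affymetrix rat U34A array, so each group had 1 array and no difference could be held against replicates or tested. Both groups were untreated as far as the labels say, and strain, age and sex are not given in the sources used here. Cells of each origin were pooled over animals, so a value describes the pool. Confluence bears on division in culture and was matched by the labels' account, but no measure of proliferation was used here.

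Progress through the cell cycle is driven by cyclin-dependent kinases, which are switched on by cyclins and held back by inhibitor proteins. In G1 the D-type cyclins with Cdk4, and then cyclin E with Cdk2, inactivate the retinoblastoma protein and release the E2F factors that switch on replication genes. Mitosis genes are switched on later, through CHR and CCAAT elements in their promoters, and are low in resting cells. Cultured endothelial cells slow their division as they reach confluence.

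Values are intensities after both arrays were brought to the same trimmed mean, in arbitrary units that cannot be compared between probe sets. A pair of marks was used to read them. The floor was the median of all scaled intensities, 635, and a probe set at or under it on both arrays gave no ratio. The second mark was the highest of 38 background controls, 1743.4, here the control level. These controls are probe sets for the opposite strand or for bacterial, yeast or mouse RNA, and a value under it cannot be told from background on that basis. A gene with a kept probe set is called measured, and its ratio is the median over kept probe sets, endocardial over aortic, with values under the floor set to it. For 9 hybridisation controls spiked into the samples the log2 ratio ran from -0.25 to 0.36. Among probe sets of the same gene above the floor on both arrays, log2 ratios had an SD of 0.39, and above the control level on both an SD of 0.30, over 384 genes.

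Of the 52 probe sets, 35 exceeded the floor with endocardial RNA and 28 with aortic RNA. All 28 were also among the 35, so the other 7 were kept through the endocardial array alone and could give only a positive ratio. Values above the control level were found for 21 endocardial and 14 aortic probe set values, with 13 probe sets above it on both arrays. By gene, 10 had a probe set above the control level on both arrays (Ccnd1, Ccnd2, Ccnd3, Ccng1, Cdc25b, Cdk4, Cdkn1a, Mcm6, Pcna and Top2a). Another 5 passed it on 1 array only, Ccne1, Cdk7, Fen1 and Plk1 on the endocardial and Cdc20 on the aortic array. The 7 genes Aurkb, Ccnb1, Cdk1, Cdk5, Cdkn1c, Cdkn2b and Prim1 lay between the floor and the control level at best. The remaining 8 genes with a probe set, Bub1b, Cdc25a, Cdk2, Cdkn1b, Pola1, Pold1, Rb1 and Tyms, were under the floor on both arrays. Ccna2, Ccnh, Cdkn2a, Plk2, Mki67, Rrm1, Rrm2, Tk1, Lig1 and Birc5 had no probe set of that symbol alone and were not analysed here.

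**Figure D1:**
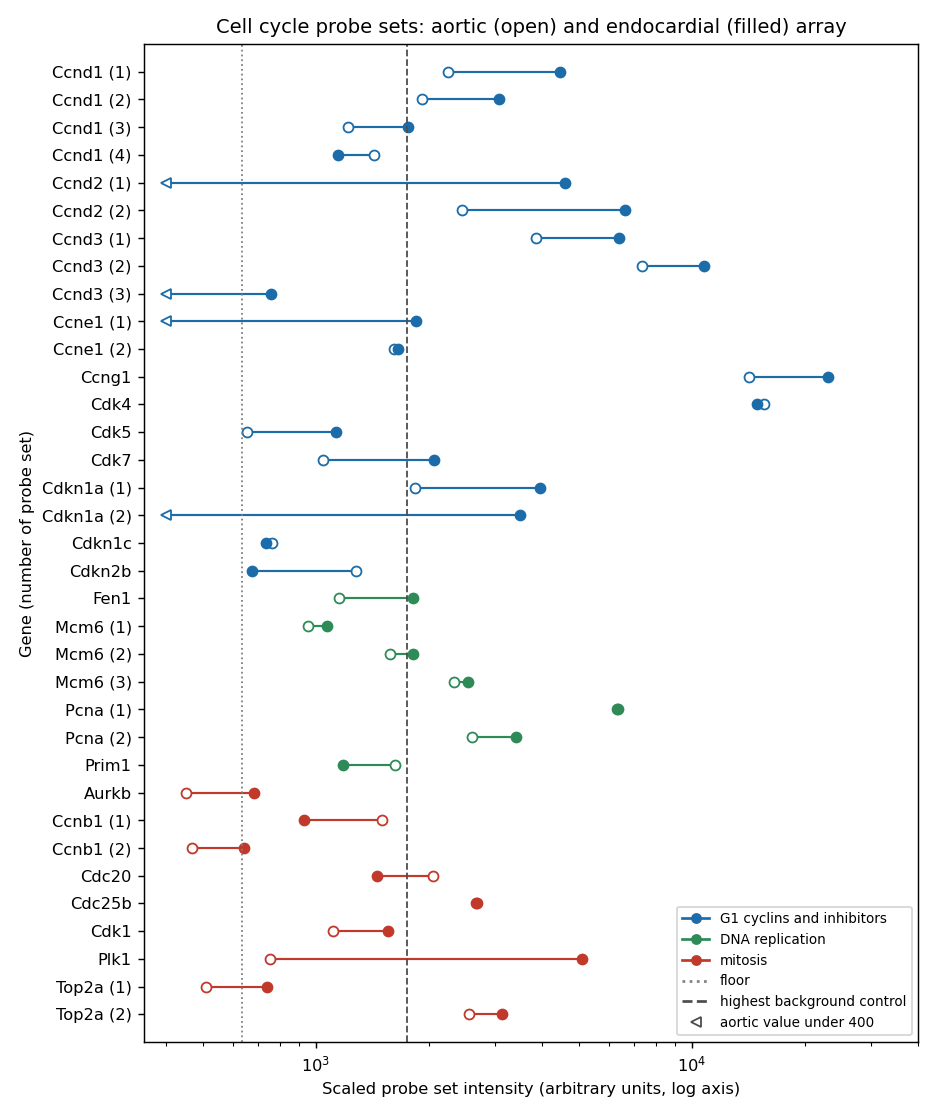
Scaled intensity (log axis) of the 35 kept probe sets of cell cycle genes on the aortic (open) and endocardial (filled) array, coloured by role, with the floor at 635 (dotted) and the highest background control at 1743.4 (dashed). Triangles are aortic values under 400. Of these probe sets, 13 lie to the right of the dashed line on both arrays.

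All 3 D-type cyclin genes, whose products link growth signals to Cdk4, had a higher value on the endocardial array. Ccnd2 had 2 probe sets. One stood at 2450.3 on the aortic array and 6628 on the endocardial one, a 2.70-fold difference with both values above the control level. The other stood at 302 and 4595, and against the control level this was at least 2.64-fold. The 2 probe sets came from different source sequences. The one at 302 and 4595 was kept through the endocardial array alone, so it could give only a positive ratio. Its bound depends on the control level and is not a second measured ratio. Over both probe sets, the log2 ratio was 2.15, and 1.42 with the floor raised to the control level.

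Ccnd1, the cyclin D1 gene, had 5 probe sets, of which 4 were kept and 3 were higher on the endocardial array. The pair of probe sets made from 1 source sequence went from 2247 to 4445 and from 1909.5 to 3058, differences of 1.98-fold and 1.60-fold. Another stood at 1214 and 1756.5, and the last kept one went the other way, from 1425.5 to 1142, with both of its values under the control level. The gene's log2 ratio was 0.61, or 0.68 with the floor at the control level. For cyclin D3, Ccnd3, the 2 probe sets above the control level also shared a source sequence, with 3856 and 6396 for the one and 7367 and 10740.5 for the other. These differences were 1.66-fold and 1.46-fold, and the gene's log2 ratio was 0.54. Another probe set reached only 758 on the endocardial array and the last was under the floor on both. Ccnd1 and Ccnd3 therefore lay within 2-fold, though every D-type cyclin probe set above the control level on both arrays was higher on the endocardial one.

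The kinase partner did not follow. Cdk4, the main partner of the D-type cyclins, stood at 15572 on the aortic array and 14894 on the endocardial one, a log2 ratio of -0.06. Ccne1, the cyclin E1 gene, had a pair of probe sets from 1 source sequence that disagreed, one at 28.0 and 1846 and the other at 1611 and 1651. The first passed the control level by little and the second not at all, so the gene's log2 ratio of 0.79 became 0.08 with the floor at the control level. Both probe sets of Cdk2, the partner of cyclin E, were under the floor on both arrays. So were those of Rb1, which encodes the retinoblastoma protein, with 598 and 316 for one and 492 and 165 for the other, and that of Cdc25a, the phosphatase that activates Cdk2.

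Among the inhibitors, Cdkn1a, which encodes p21 and is a main target of the tumour suppressor p53, was the one with values above the control level. It had 2 probe sets from different source sequences. One stood at 1838 on the aortic array and 3948 on the endocardial one, a 2.15-fold difference with the aortic value only just above the control level. The other stood at -655 and 3489, at least 2.00-fold against the control level. This second probe set was kept through the endocardial array alone and could give only a positive ratio. The gene's log2 ratio of 1.78 is the median of 1.1 for the first and 2.46 for the second, whose aortic value was set to the floor. With the floor at the control level the gene's log2 ratio was 1.05, close to the 2-fold mark. Cdkn2b, which encodes the Cdk4 inhibitor p15, had the lowest ratio of the 22 measured genes, with 1277 on the aortic array and 676 on the endocardial one and a log2 ratio of -0.92. Both of its values were under the control level. Cdkn1c, which encodes p57, stood at 765 and 737, and Cdkn1b, which encodes p27, had values below 0 on both arrays (-50.5 and -64.5).

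Of the remaining regulators grouped with G1, Ccng1 was well above background. Its product, cyclin G1, is another p53 target, and its 1 probe set stood at 14174 on the aortic array and 22949 on the endocardial one, a 1.62-fold difference. Cdk7, the catalytic kinase of the complex that activates other cyclin-dependent kinases, went from 1047 to 2062. Its log2 ratio of 0.98 lay just under the 2-fold mark and passed it with other scalings (1.02 after centring and 1.03 after loess), but was 0.24 with the floor at the control level. Cdk5, a kinase known mainly for its work in neurons, stood at 656 and 1132, under the control level on both.

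Replication genes differed little. Pcna, the sliding clamp of DNA polymerases, had a pair of probe sets from 1 source sequence with 6316 and 6347 for the one and 2592 and 3412 for the other, and a log2 ratio of 0.20. Mcm6, a subunit of the replicative helicase, had 3 probe sets. Its values were 2335 and 2543, 1569 and 1808, and 953 and 1070.5, aortic first. All 3 were slightly higher on the endocardial array, and the gene's log2 ratio was 0.17, inside the range of the spiked controls. Fen1, the nuclease that trims Okazaki fragments, went from 1152 to 1815, a log2 ratio of 0.66 that became 0.06 with the floor at the control level. Prim1, the catalytic primase subunit, had a kept probe set at 1619 and 1181 (log2 ratio -0.46), under the control level on both. The polymerase genes Pola1 and Pold1 had values below 0 on both arrays, and Tyms, which makes thymidylate, reached 258 at most.

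Among mitosis genes Plk1 stood away from the others. Plk1 encodes a kinase that drives entry into and progress through mitosis. Its 1 probe set stood at 757 on the aortic array and 5097 on the endocardial one. The ratio was 6.73-fold at face value (log2 ratio 2.75), and since the aortic value lay under the highest background control, the difference is at least 2.92-fold. Of the 1904 genes with a value above the control level, taken with the floor there, 21 had a higher ratio at that floor than Plk1, 32 than Ccnd2 and 68 than Cdkn1a. The other 6 measured mitosis genes had log2 ratios from -0.50 to 0.48. Cdk1, the kinase that starts mitosis, stood at 1112 and 1550 (0.48), and Ccnb1, its cyclin B1 partner, at 1501 and 927 for one probe set and 467 and 642 for the other (-0.34). Both were under the control level throughout. Cdc20, which activates the anaphase-promoting complex, was lower on the endocardial array, with 2050.4 and 1451 (-0.50). Top2a, the topoisomerase that untangles sister chromatids, stood at 2556 and 3128 for the probe set above the control level and at 509 and 743 for a second (0.26). Cdc25b, a phosphatase that activates Cdk1, stood at 2668 and 2679 for 1 of its 3 probe sets (0.01). Aurkb, a kinase of the chromosomal passenger complex, reached 685 on the endocardial array, and Bub1b, a spindle checkpoint gene, was under the floor.

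The promoters of the mitosis genes share short elements. RefSeq windows on GRCr8, from 250 bases before the transcription start to 50 after, were held for 34 of the 40 genes, with the first listed start of each gene. They were searched on both strands for the CHR element (TTTGAA), the CCAAT box (CCAAT), the GC box (GGGCGG), the E2F site (TTTGGCGC or TTTCGCGC) and the TATA box (TATAAA). The CHR letters occurred in 7 of 9 mitosis windows (77.8%), 1 of 15 G1 windows (6.67%) and 0 of 10 replication windows, against 18.1% of 27457 windows of all genes. The CCAAT letters occurred in 8 of 9 mitosis windows (88.9%), 7 of 15 G1 windows (46.7%) and 6 of 10 replication windows (60%), against 37.7% of all. The E2F letters were in 4 of 10 replication windows (40%), 1 of 9 mitosis windows (11.1%) and 1 of 15 G1 windows (6.67%), against 0.841% of all. The GC box was in 28 of the 34 windows (82.4%) against 34.9% of all, and the TATA letters in 0 of 34 against 14.3% of all. A match is a description of the letters, and the array does not measure promoters.

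The measured mitosis genes with both a CHR and a CCAAT match are shown, so that the elements of Plk1 can be seen beside those of others, with the measured replication gene that holds E2F letters. Capitals mark matches to the 5 motifs on either strand, and the Mcm6 capitals before the GC box are 2 overlapping E2F matches, one per strand.

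Plk1, chr1:186147408-186147707, plus strand: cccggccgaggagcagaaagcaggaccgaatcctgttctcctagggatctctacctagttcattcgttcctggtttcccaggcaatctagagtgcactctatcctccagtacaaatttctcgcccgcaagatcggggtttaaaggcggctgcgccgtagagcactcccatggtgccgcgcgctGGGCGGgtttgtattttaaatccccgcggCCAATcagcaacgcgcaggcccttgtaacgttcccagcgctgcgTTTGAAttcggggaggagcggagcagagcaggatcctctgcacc

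Cdk1, chr20:19265043-19265342, plus strand: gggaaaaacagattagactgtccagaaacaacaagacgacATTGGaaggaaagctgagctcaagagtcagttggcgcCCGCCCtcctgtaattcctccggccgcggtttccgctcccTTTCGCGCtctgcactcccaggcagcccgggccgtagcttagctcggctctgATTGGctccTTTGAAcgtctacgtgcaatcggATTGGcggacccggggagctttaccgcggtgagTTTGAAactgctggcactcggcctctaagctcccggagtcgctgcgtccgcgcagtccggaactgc

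Cdc20, chr5:137255750-137256049, minus strand: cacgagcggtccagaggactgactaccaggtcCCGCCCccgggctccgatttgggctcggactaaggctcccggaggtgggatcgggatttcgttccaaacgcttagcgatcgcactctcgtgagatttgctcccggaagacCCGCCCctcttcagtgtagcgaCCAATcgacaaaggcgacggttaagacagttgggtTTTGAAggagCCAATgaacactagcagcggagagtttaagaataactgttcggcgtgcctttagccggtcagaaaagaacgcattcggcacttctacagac

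Top2a, chr10:84473044-84473343, minus strand: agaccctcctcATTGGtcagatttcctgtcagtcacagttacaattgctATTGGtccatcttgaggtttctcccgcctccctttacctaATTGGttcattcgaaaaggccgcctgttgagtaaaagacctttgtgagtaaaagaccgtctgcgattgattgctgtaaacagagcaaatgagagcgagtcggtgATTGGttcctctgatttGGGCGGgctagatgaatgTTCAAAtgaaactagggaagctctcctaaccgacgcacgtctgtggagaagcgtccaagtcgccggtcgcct

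Mcm6, chr13:42404303-42404602, minus strand: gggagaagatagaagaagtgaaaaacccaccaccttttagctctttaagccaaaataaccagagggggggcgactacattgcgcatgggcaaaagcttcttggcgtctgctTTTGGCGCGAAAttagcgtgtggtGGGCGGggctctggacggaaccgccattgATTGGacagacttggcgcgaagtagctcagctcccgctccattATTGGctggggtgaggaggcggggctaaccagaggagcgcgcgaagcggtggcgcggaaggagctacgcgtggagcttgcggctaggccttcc

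In Plk1 a CCAAT match began 38 bases before the start and the CHR match 6 bases after it. The CHR match of Top2a began 22 bases before the start and that of Cdc20 51 bases before it, each with a CCAAT match within the window. Cdk1 had 2 CHR matches, beginning 72 and 16 bases before the start. Of these 4 genes, Top2a alone had a probe set above the control level on both arrays.

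Of the 22 measured genes, 3 (13.6%) passed 2-fold in the direction of higher endocardial values, Ccnd2, Cdkn1a and Plk1, and 0 in the opposite one, where 5.93% and 4.16% of all 2935 measured genes were. With the floor at the control level, the same count was 3 of 15 higher (20%) and 0 lower, against 3.99% and 2.36% of 1904 genes, again Ccnd2, Cdkn1a and Plk1. With the floor at the 75th percentile of all scaled values, 2574.6, Ccnd2 alone passed 2-fold of 10 genes (log2 ratio 1.10), with Plk1 at 0.99 and Cdkn1a at 0.53. At that floor 45 of all 1505 genes passed in the same direction. Of the 13 probe sets above the control level on both arrays 2 passed 2-fold, 1 each of Ccnd2 and Cdkn1a. For all genes 67 of 2030 such probe sets (3.3%) did so in that direction. At counts this small 1 gene moves the share by several percentage points. The median log2 ratio was 0.37 over the 22 genes and -0.02 over all measured genes. By role it was 0.70 for 11 G1 genes, 0.18 for 4 replication genes and 0.11 for 7 mitosis genes. The filter lets in genes through the endocardial array alone, so the medians were also taken over probe sets above a mark on both arrays. Above the floor on both, 21 of 28 probe sets were higher on the endocardial array (75%, against 47.8% of 3259 probe sets of all genes), with a median of 0.34. Above the control level on both, 12 of 13 were higher (against 47.5% of 2030), with a median of 0.54. Cdk4 was the exception. Of those 13 probe sets, 8 belong to G1 genes and several share a source sequence, so they are not 13 separate observations.

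**Figure D2:**
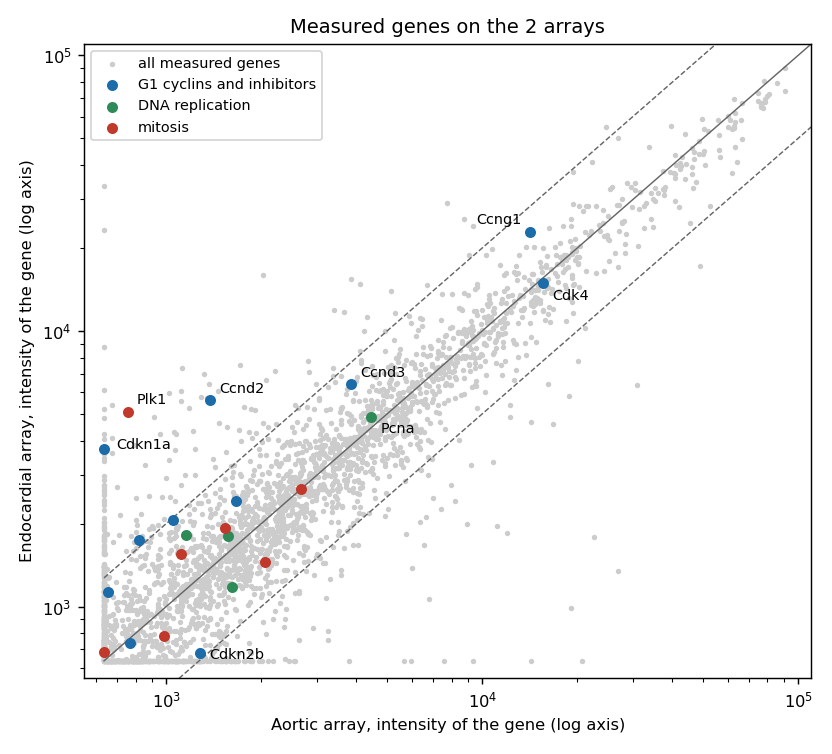
Intensity of each measured gene (median of its kept probe sets, values under 635 drawn at 635; log axes) on the aortic and the endocardial array, with all genes in grey and cell cycle genes coloured by role. The solid line marks equal values and the dashed lines 2-fold. Plk1, Ccnd2, Cdkn1a and Ccne1 are drawn above the upper dashed line. Cdkn1a is drawn with its aortic value of 592 set to 635, and its ratio, the median over probe sets, is 3.43-fold. Ccne1 is drawn at its median intensities, 820 and 1749, but its ratio taken the same way is 1.73-fold, so it counts as within 2-fold.

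**Figure D3:**
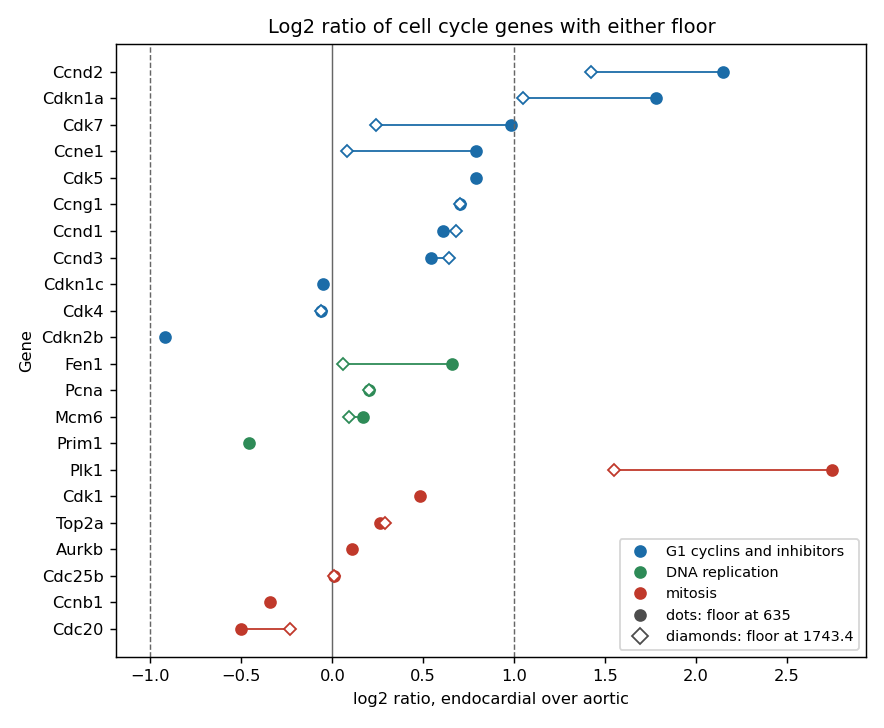
Log2 ratio (endocardial over aortic) of the 22 measured cell cycle genes with the floor at 635 (dots) and, for the 15 genes with a value above it, at 1743.4 (diamonds), grouped by role; dashed lines mark 2-fold. Plk1, Ccnd2 and Cdkn1a stay past 2-fold with either floor, while Cdk7, Ccne1 and Fen1 move to 0.24 or less.

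A further 110 cell cycle genes, listed for their textbook roles, had 39 genes with a probe set and 26 measured. Of these, 0 passed 2-fold towards the endocardial array and 2 (7.69%) towards the aortic array, beside 5.93% and 4.16% of all measured genes, and the median log2 ratio was 0.08. With the floor at the control level 0 of 15 were higher and 1 of 15 lower (6.67%, Gadd45a), beside 3.99% and 2.36% of all. Gadd45a, a growth arrest gene that like Cdkn1a is a p53 target, was lower on the endocardial array with all 4 probe sets, which stood between 8790 and 17541 on the aortic and between 1525 and 3487 on the endocardial array. Against the control level each of the 4 was at least 5.03-fold lower. Myc, the transcription factor gene that promotes entry into the cycle, stood at 4781 and 2918 for one probe set and at 3045 and 1110 for the other, from the same source sequence. Its log2 ratio was -1.08, and -0.76 with the floor at the control level. Mdm2, the p53 inhibitor and target, which was named after its values had been seen, had a log2 ratio of 0.55 with all 3 kept probe sets higher. The ratio was 0.34 with the floor at the control level. Its probe set above that level on both arrays stood at 4638 and 4971 (log2 ratio 0.1). The highest ratios among genes with both median intensities above the control level were those of the antiproliferative gene Btg3 (0.31) and the condensin gene Smc4 (0.28). Mcm7, a helicase subunit like Mcm6 and also named after its values were known, stood at 2022 and 2038 (0.01).

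Of 7 endothelial markers with a probe set, thrombomodulin, Thbd, passed the control level on both arrays with one probe set (3918 and 2847). Its other probe set was under the floor on both (-150 and 270). Vwf, Pecam1 and Kdr, which define endothelium, did not reach the floor on either array. Nos3 and Flt1 were measured. For Nos3, 1 probe set passed the control level, on the aortic array alone (1831 and 1436), and the gene's log2 ratio was -0.06. Flt1 stood at 827 and 1054, between the floor and the control level. Other cell types' markers moved with the comparison. Of 10 measured macrophage and leukocyte genes of 12 listed, 7 passed 2-fold towards the endocardial array and 0 towards the aortic. Of all measured genes, 5.93% and 4.16% did. The list's summed intensity was 9894 on the aortic array and 59110 on the endocardial one, where the macrophage lysozyme gene Lyz2 alone gave 33601. The sum takes the brightest probe set of each gene and counts values under 0 as 0. Such sums compare the same probe sets between the arrays and not 1 list with another. For 7 of the 10 genes the brightest probe set exceeded the floor through the endocardial array alone. With the floor at the control level 2 of 7 passed 2-fold towards the endocardial array, beside 3.99% of all genes. These were Lyz2, with 288 and 33601 (at least 19.3-fold), and the macrophage elastase gene Mmp12, with 268 and 6084 (at least 3.49-fold). Cd14, the 1 gene of this list above the control level on the aortic array, differed less. It stood at 4198 and 4627 for one probe set (1.1-fold) and at 2290 and 3509.5 for the other (1.53-fold). The macrophage receptor gene Csf1r did not reach the floor, and the pan-leukocyte gene Ptprc did not reach the control level, on either array. Summed intensities of smooth muscle genes were 119772 and 157192, with 5 of 6 measured, and of fibroblast genes 323471 and 293154, with 6 of 6 measured. Each of these lists had 1 gene past 2-fold in each direction. The smooth muscle myosin light chain gene Myl9 was higher on the endocardial array (8254.5 and 26969 for one probe set, 3.27-fold). The smooth muscle myosin heavy chain gene Myh11 was lower with its 1 kept probe set (2531 and 614). That was at least 1.45-fold against the control level, and the other Myh11 probe sets were under the floor on both arrays. Among fibroblast genes the matrix protein gene Postn stood at 2025 and 15931, 7.87-fold higher, whereas the matrix proteoglycan gene Dcn was lower with all 4 of its probe sets, one at 22298 and 1728 (at least 12.8-fold). The endothelial gene Ace was lower at 2295.5 and 1027 (log2 ratio -1.16), at least 1.32-fold against the control level. For 3 measured cardiomyocyte genes of 5 the sums were 4616 and 3736. The part of these cells in the differences of Ccnd2, Cdkn1a and Plk1 was not tested, and in pooled RNA more cells of a type and more RNA per cell cannot be told apart. Ratios of the 3′ to the 5′ probe set of beta-actin, a sign of RNA integrity, were 1.11 on the aortic array and 1.09 on the endocardial one.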

How the data were processed

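The deposited table held linear intensities, which can fall below 0, of 8799 probe sets on 2 arrays. The software that made them is not stated in the labels or files. The 59 control probe sets were set aside and the 8740 others scaled to the aortic array's trimmed mean (2% cut at each end, factor 0.999 for the endocardial array). The floor was the median scaled value, 635. Symbols came from the platform annotation, with 7006 probe sets of exactly 1 symbol, 308 of several and 1426 of none. Of the 7006, 6985 were found by gene identifier in the RefSeq table of GRCr8, with 0 renamed. Pairings were not checked by sequence. A source sequence is the accession in a probe set's name.

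All 40 members are accounted for. Among the 110 other genes, those named were at least 2-fold apart with a value above 1743.4, or had the 2 highest or 2 lowest ratios with both values above it, except Mdm2 and Mcm7, named after their values were seen. Members and lists were chosen with earlier results of these data known. The arrays' 41 recorded settings differed in 2 (scan time, fluidics module). The gene step was tested on simulated data. Python 3.11.15 with pandas 2.3.3 and statsmodels 0.14.6 was used. Alternatives were unscaled values, quantile normalization, centring, loess (span 0.4), 3 other floors (none, 1743.4 and the 75th percentile, 2574.6), the brightest probe set, and probe sets counted singly.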

Additional observations from a re-analysis of the deposited data

How the results depend on the processing

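With 1 array per group no value has a replicate error, and the number of arrays limits the precision. The count of cell cycle genes past 2-fold with higher endocardial values was 3 and ran from 3 to 4 under the scalings, without a floor, with the brightest probe set and with the floor at 1743.4. That count was 1 of 10 genes, Ccnd2, with the floor at the 75th percentile, where Plk1 had a log2 ratio of 0.99 and Cdkn1a 0.53. When probe sets were counted singly it was 6 of 35. Over all genes the counts were 45 of 1505 at that floor and 271 of 3975 with probe sets counted singly. The count of lower genes was 0, except 1 without a floor, Rb1, whose values were all under 635. The cause was not tested beyond the floors' own construction. Medians of the measured genes ran from 0.21 to 0.52 and of the G1 genes from 0.58 to 0.75. Those of the replication genes ran from 0.07 to 0.23 and of the mitosis genes from 0.09 to 0.28. All were above 0, but every run reuses the same 2 arrays, so a shared sign is not separate evidence. The replication median at the 75th percentile floor rests on 1 gene. Medians of the 110 further cell cycle genes, where measured, were also above 0, from 0.02 to 0.13. The replication and mitosis ranges lay inside that of the spiked controls, -0.25 to 0.36. The controls are single probe sets and the ranges are of medians over genes, so no conclusion is drawn from this. No paired analysis was possible because each group has 1 array and the labels carry no replicate numbers.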
